A study of Homo sapiens with 2 samples.

Results

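The S100 genes encode small calcium-binding proteins, and 10 of them were followed on 2 expression arrays of CP-A cells: S100A8 and S100A9, which encode the subunits of calprotectin, S100A7, S100A12, S100A2, S100A4, S100A6, S100A10, S100A11 and S100P. The members were chosen by gene symbol and matched in the platform annotation. All 10 were found, each as 1 transcript cluster, of 17687 genes with a symbol on 20893 transcript clusters. A transcript cluster is the set of short probes that reads 1 gene on the array. CP-A is a cell line from non-dysplastic Barrett's esophagus, immortalized with human telomerase reverse transcriptase. The pH 6.4 + DCA array carried RNA of CP-A cells that the methods describe as exposed 3 times for 48 h to acidified medium of pH 6.4 with 100 µM deoxycholic acid (DCA), a secondary bile acid. The control array carried RNA of CP-A cells kept without acid and DCA. The methods arrest cells in mitosis with nocodazole before RNA is taken for RT-qPCR, and whether the array RNA came from cells treated in this way is not stated. Both sets of cells were grown in medium with serum, epidermal growth factor, pituitary extract, hydrocortisone and cholera toxin, and the cells are 1 line, so that they stand for no other epithelium.

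Each condition had 1 array, and the number of cultures behind it is not stated. No difference below has a replicate check, and neither a p-value nor a standard error can be given. The arrays are named by their labels. Levels are log2 expression values as the authors deposited them, and a difference is the pH 6.4 + DCA level minus the control level. A gene is called higher or lower at 2-fold or more, the threshold of the methods. On the array as a whole 2.65% of transcript clusters were higher and 4.00% were lower. The lower quartile of levels was 4.45 on the pH 6.4 + DCA array and 4.43 on the control array, and a gene under it on both arrays is called dim here. Over all transcript clusters the median difference was 0.0066 and the SD of the differences 0.58. A higher level per cell cannot be told apart from a larger share of cells with the transcript, since RNA of whole cultures was measured.

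S100 proteins are built of a pair of EF-hands, loops that bind calcium, and most act as dimers. S100A8 and S100A9 join into calprotectin, which binds zinc and manganese away from microbes and, once released, acts on receptors of innate immunity. Calprotectin is best known from neutrophils and monocytes, and keratinocytes and other stratified epithelia make it under inflammation. S100A12 is largely a neutrophil protein, and S100A7, psoriasin, was found in psoriatic skin. S100A10 and S100A11 bind annexins under the plasma membrane. S100A2 is abundant in basal squamous cells, S100A4 and S100A6 bind cytoskeletal and signalling proteins, and S100P is found in placenta and in many gastrointestinal tumors. All but S100P lie in a cluster on the long arm of chromosome 1 that also holds the epidermal differentiation complex.

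The regions before the starts of the calprotectin genes are shown because these genes had the largest differences of the family. RefSeq windows of 250 bases before an annotated start (GRCh38.p14) were found for 19 of the 21 S100 symbols looked up, including all 10 members. Of the 3 annotated starts of S100A8, the one with a TATA box in the 40 bases before it was used. The S100A8 window is chr1:153391074-153391323 on the minus strand and the S100A9 window is chr1:153357604-153357853 on the plus strand. Both lines run 5′ to 3′ toward the start, and capitals mark matches to TATAAA and to TTNNGNAA, a loose form of the C/EBP motif, on either strand.
S100A8: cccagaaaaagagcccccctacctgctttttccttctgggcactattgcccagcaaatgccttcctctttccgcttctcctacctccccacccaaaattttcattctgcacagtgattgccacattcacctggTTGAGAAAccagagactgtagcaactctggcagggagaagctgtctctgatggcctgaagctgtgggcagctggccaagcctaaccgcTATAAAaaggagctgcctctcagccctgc
S100A9: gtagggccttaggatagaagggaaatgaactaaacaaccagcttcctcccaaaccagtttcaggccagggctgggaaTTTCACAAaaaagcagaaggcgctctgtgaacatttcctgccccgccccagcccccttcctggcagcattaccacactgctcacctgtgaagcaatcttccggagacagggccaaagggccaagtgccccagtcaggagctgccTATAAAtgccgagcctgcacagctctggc
In both windows TATAAA began 29 bases before the start. Of 35116 windows in the table, read over the same 250 bases, 10.7% held TATAAA and 33.2% held TTNNGNAA. These are all windows, with no choice among the starts of a gene. TATAAA in S100A8 was fixed by the choice of its start, and of the 8 members with 1 annotated start 5 held it, namely S100A9, S100A7, S100A12, S100A4 and S100P. It began 8 bases before the start in S100A12, and 28 to 31 bases before it in S100A9, S100A7, S100A4 and S100P. TTNNGNAA was in 6 of the 10 members. TGANTCA, the AP-1 motif, was in 6.57% of all windows and in 1 member, S100A12. TTCNNNGAA, a STAT motif, was in 6.57% of all windows and in 0 members. Both strands were searched, and the C/EBP and STAT letters can overlap. A match is a description of the letters only.

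The calprotectin genes rose together. S100A8 (TC0100015858.hg.1) had a log2 level of 10.56 on the pH 6.4 + DCA array, against 6.82 on the control array, a difference of 3.74, or 13.4-fold. S100A9 (TC0100010032.hg.1) had a level of 10.50 with pH 6.4 + DCA, against 7.16 in the control, a difference of 3.34, or 10.1-fold. Neither gene was dim on either array, and the difference of S100A8 exceeded that of S100A9 by 0.40 on the log2 scale. Counted from the highest of 20893 differences, S100A8 had rank 8 and S100A9 rank 14. The differences of the 5223 transcript clusters of similar brightness, with mean levels between 6.52 and 9.39, had an SD of 0.70.

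S100A7 and S100P were also higher. S100A7 (TC0100015862.hg.1), the psoriasin gene, had a level of 6.08 with pH 6.4 + DCA, against 4.66 in the control, a difference of 1.42, or 2.68-fold, with rank 152. Its control level lay close to the lower quartile of the array, and with 32 added on the linear scale its difference was 0.80, under 2-fold. S100P (TC0400012763.hg.1) had a level of 13.31 with pH 6.4 + DCA, against 12.21 in the control, a difference of 1.10, or 2.15-fold, with rank 405. S100P lay just past the threshold. In all, 4 of the 10 members were higher and 0 were lower, beside 2.65% and 4.00% of all transcript clusters, and the members had a median difference of 0.45.

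**Figure D1:**
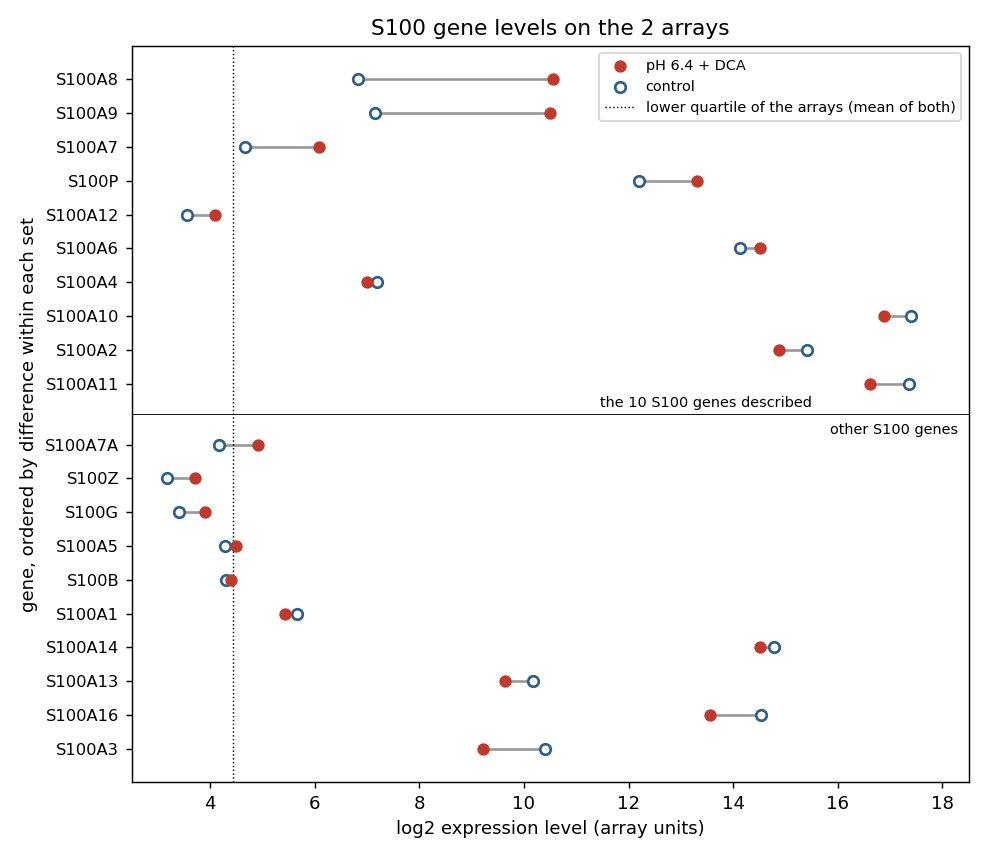
Log2 expression level (horizontal axis, array units) of the 20 measured S100 genes, with the pH 6.4 + DCA array as filled points, the control array as open circles and the lower quartile of the arrays dotted. S100A8 and S100A9 have the widest gaps, at 10.56 against 6.82 for S100A8 and 10.50 against 7.16 for S100A9, and S100A10, S100A11 and S100A2 lie to the left of their control level.

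S100A12, whose product calgranulin C is a ligand of the receptor AGER, was dim. It had a level of 4.09 with pH 6.4 + DCA and 3.55 in the control, a difference of 0.53. Its gene lies between those of S100A9 and S100A8. Among the 5224 dimmest transcript clusters, with mean levels up to 4.45, the SD of the differences was 0.40, and with 32 added on the linear scale S100A12 differed by 0.16.

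S100A10 and S100A11, which bind annexins, were below control by less than 2-fold. S100A10 had a level of 16.89 with pH 6.4 + DCA and 17.40 in the control, a difference of -0.51. ANXA2, the annexin with which S100A10 forms a complex at the plasma membrane, had a difference of -0.55, so that the subunits of this complex lay 0.04 apart on the log2 scale. S100A11 had a level of 16.63 with pH 6.4 + DCA and 17.37 in the control, a difference of -0.74, the lowest of the 10 members, while its partner ANXA1 differed by -0.17.

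The other members differed by less than 2-fold in either direction. S100A2, a gene of basal squamous cells, had a level of 14.88 with pH 6.4 + DCA and 15.42 in the control, a difference of -0.54. S100A6, calcyclin, had 14.52 with pH 6.4 + DCA and 14.14 in the control, a difference of 0.38. Its annexin partner ANXA11 differed by 0.02. S100A4, which binds non-muscle myosin, had 6.99 with pH 6.4 + DCA and 7.19 in the control, a difference of -0.19. S100A2, S100A6 and S100A4 therefore spanned differences of -0.54 to 0.38, within the SD of 0.58 of all transcript clusters.

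**Figure D2:**
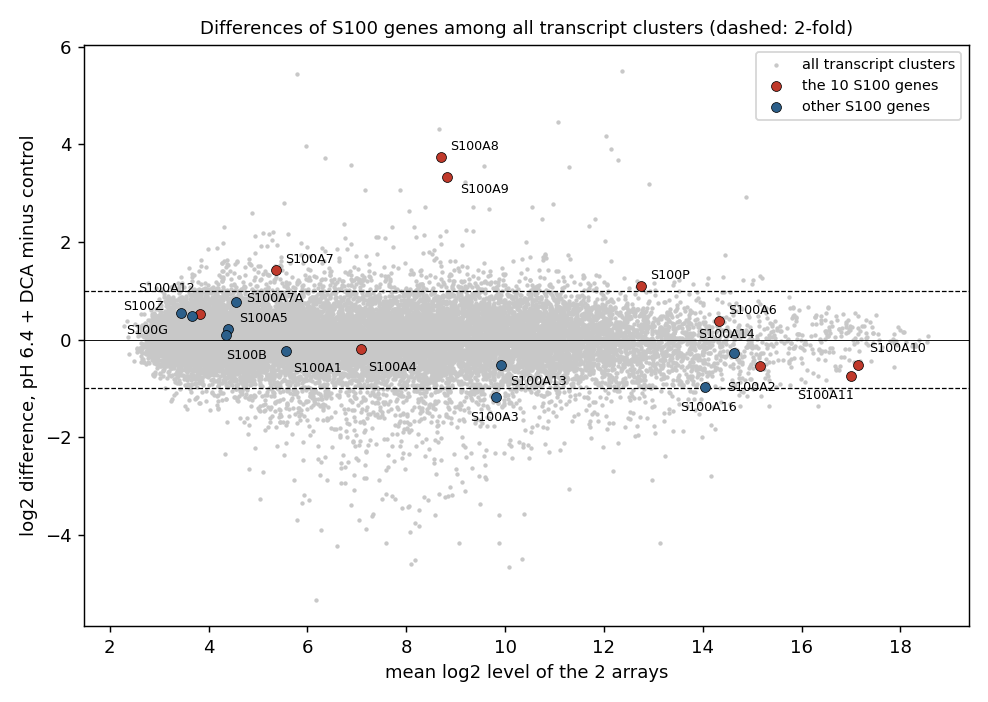
Log2 difference (vertical axis, pH 6.4 + DCA minus control) against the mean log2 level of both arrays (horizontal axis) for 20893 transcript clusters in grey, the 10 S100 genes in red and the other S100 genes in blue, with 2-fold dashed. S100A8 at 3.74 and S100A9 at 3.34 lie among the highest points, S100A7 and S100P lie just above the upper line, and S100A3 lies below the lower one.

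Outside the 10 members, 10 further S100 genes were measured and S100A7L2 was not analysed here. Of the 10 measured, 0 were higher and 1 was lower, with a median difference of -0.07. Beside 2.65% higher and 4.00% lower of all transcript clusters, these counts are near the background and no result about these genes. The lower one was S100A3, a gene known from the hair cuticle, with a level of 9.22 with pH 6.4 + DCA and 10.40 in the control, a difference of -1.18, or 44.0% of control. S100A16 lay just inside the threshold at -0.98, with 13.56 with pH 6.4 + DCA and 14.53 in the control. S100A13, which takes part in the release of proteins without a signal peptide, differed by -0.53, S100A14 by -0.27 and S100A1, a gene of muscle, by -0.23. S100B, S100G and S100Z were dim and differed by 0.08, 0.49 and 0.54, and S100A5 differed by 0.21. Over all 20 measured S100 genes, 4 were higher, 1 was lower and 15 were neither, with differences between -1.18 and 3.74.

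S100A7A, the closest paralogue of S100A7, had a level of 4.92 with pH 6.4 + DCA and 4.16 in the control, a difference of 0.76, under 2-fold and 0.66 below that of S100A7. The windows before both genes are shown because they are nearly the same sequence on opposite strands. They are chr1:153460652-153460901 on the minus strand for S100A7 and chr1:153416270-153416519 on the plus strand for S100A7A, 5′ to 3′, and capitals mark the bases that differ.
S100A7: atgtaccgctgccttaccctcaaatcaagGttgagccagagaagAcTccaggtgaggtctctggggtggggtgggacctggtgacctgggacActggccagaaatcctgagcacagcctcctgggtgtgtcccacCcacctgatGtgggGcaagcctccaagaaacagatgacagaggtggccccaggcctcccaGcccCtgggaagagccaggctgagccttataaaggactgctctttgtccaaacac
S100A7A: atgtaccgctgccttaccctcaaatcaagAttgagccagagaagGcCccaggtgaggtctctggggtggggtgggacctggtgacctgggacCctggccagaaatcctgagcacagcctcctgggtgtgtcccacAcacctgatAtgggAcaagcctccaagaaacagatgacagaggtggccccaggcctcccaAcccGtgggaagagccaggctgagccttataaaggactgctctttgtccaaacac
Of 250 aligned bases 241 were identical, or 96.4%, with 0 gaps, and TATAAA lay 28 bases before the S100A7 start. The probe sequences of the array were not analysed here, and how far the probes of either gene read the transcript of the other was not tested.

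The S100A genes were read in their order along chromosome 1. Next to S100A9 lies PGLYRP4, which encodes a peptidoglycan recognition protein of innate defence, with a level of 4.48 with pH 6.4 + DCA and 3.44 in the control, a difference of 1.04. With 32 added on the linear scale PGLYRP4 differed by 0.34, under 2-fold. The 5 measured S100 genes that follow, S100A9, S100A12, S100A8, S100A7A and S100A7, all had a difference above 0, with 3 of them higher and a median of 1.42. Of the 10 measured genes from S100A6 to S100A1, 0 were higher and 1, S100A3, was lower, with 3 above 0, 7 below 0 and a median of -0.25. S100A10 and S100A11, at the far end of the cluster, were both below control. These stretches were divided after their values were seen, and the 2.65% and 4.00% of all transcript clusters are the background for them.

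Between S100A11 and S100A9 lie genes of the cornified envelope, the protein shell of squamous cells, and several were lower. Of 45 measured genes in this stretch, 1 was higher, PGLYRP4, and 5 were lower, with a median of -0.14. Of 12 listed genes for precursors of the envelope, namely IVL, LORICRIN and SPRR genes, 4 were lower and 0 were higher. This stands beside 4.00% lower and 2.65% higher of all transcript clusters. The 4 were all SPRR genes, and the median of the 12 was -0.69. SPRR1A, a small proline-rich protein cross-linked into the envelope, had 7.17 with pH 6.4 + DCA and 10.39 in the control, a difference of -3.22. SPRR1B had 5.77 with pH 6.4 + DCA and 8.20 in the control, a difference of -2.43. SPRR2A and SPRR2D differed by -1.54 and -1.12, and the SPRR2 genes are close copies whose probes may read each other. The fifth lower gene of the stretch was LCE1D at -1.80, named after its value was seen. The other late cornified envelope (LCE) genes of the stretch, which are outside the list of 12, were within 2-fold. Involucrin, IVL, differed by -0.86 and loricrin, LORICRIN, by 0.24. Of the 7 fused-type S100 genes, such as FLG for filaggrin, whose products carry an S100 domain ahead of long repeats, 0 were higher and 0 were lower, with differences between -0.52 and 0.06, and 5 of them were dim. S100P, alone on chromosome 4, lies between MRFAP1 at -0.14 and MRFAP1L1 at -0.03.

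**Figure D3:**
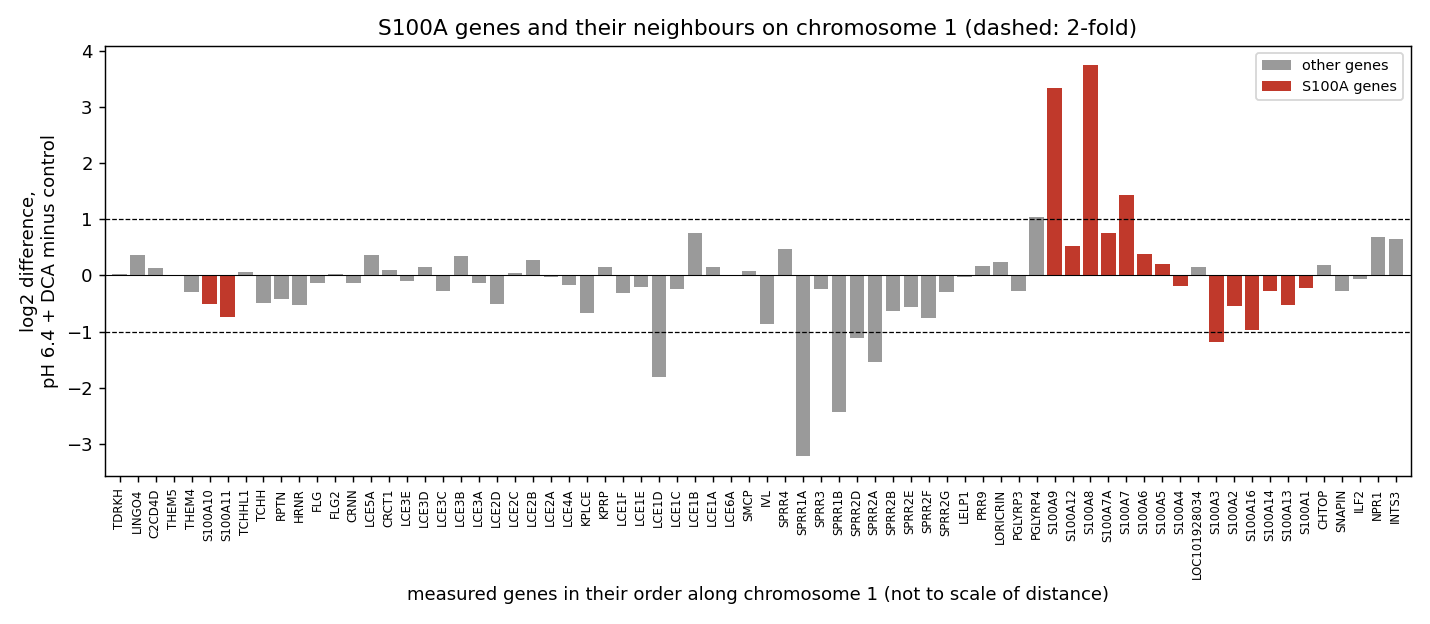
Log2 difference (bars, pH 6.4 + DCA minus control) of the measured genes from S100A10 to S100A1 with 5 on either side, in their order along chromosome 1 and not to scale of distance, with S100A genes in red and 2-fold dashed. The bars of S100A9, S100A8 and S100A7 reach 3.34, 3.74 and 1.42 above 0, and those of SPRR1A and SPRR1B reach -3.22 and -2.43 below it.

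Receptors, partners and regulators of S100 proteins were read against the 2.65% higher and 4.00% lower of all transcript clusters, and their counts of 0 or 1 called gene in lists of 5 to 10 are near that background and no result about these genes. Of 5 receptors of extracellular S100 proteins measured, 0 were higher and 0 were lower, with a median of 0.31. TLR4, a receptor of calprotectin, had 6.28 with pH 6.4 + DCA and 6.44 in the control, a difference of -0.15. AGER, the receptor for advanced glycation end products, had 4.99 with pH 6.4 + DCA and 4.51 in the control, a difference of 0.48. The receptors BSG and NPTN were brighter, at 16.50 and 11.10 with pH 6.4 + DCA and 16.67 and 10.78 in the control. BSG differed by -0.18, NPTN by 0.31 and CD36 by 0.62. Of 9 intracellular partners 1 was lower, ANXA6, and 0 were higher, with a median of -0.17. ANXA6 lay at -1.02 and was within 2-fold after centring, at -0.97, after quantile normalization, at -0.98, and with 32 added, at -0.88. EZR, the ezrin gene, whose product S100P binds, differed by -0.28, against 1.10 for S100P. Of 10 transcription factors known to act on S100 genes, 0 were higher and 0 were lower, with a median of -0.28. STAT3 came nearest to the threshold, at 0.95, with 11.13 with pH 6.4 + DCA and 10.17 in the control, and after centring it passed it at 1.01. CEBPB, a C/EBP factor of myeloid and epithelial cells, differed by 0.02, and by -0.0039 with the lowess trend removed. MCAM and TP63 were not analysed here.

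Other defence genes of epithelia differed unevenly. Of 10 antimicrobial and antiprotease genes measured, 0 were lower and 2 were higher, their median was 0.08, and 5 were dim. This stands beside 4.00% lower and 2.65% higher of all transcript clusters. The higher ones were PI3 and PGLYRP4. With 32 added on the linear scale PGLYRP4 was within 2-fold, at 0.34, and 1 gene of the list was higher. PI3, the elafin gene, had 15.12 with pH 6.4 + DCA and 9.62 in the control, a difference of 5.50, the highest of all transcript clusters. SLPI, the secretory leukocyte protease inhibitor, lay just under 2-fold at 0.98, and past it after centring, at 1.04, after quantile normalization, at 1.13, and with the lowess trend removed, at 1.06. LCN2, which keeps iron from bacteria, differed by 0.47 and RNASE7 by -0.40. DEFB4A was dim, at 3.31 with pH 6.4 + DCA and 3.69 in the control. Of keratins of activated squamous epithelium, KRT16 had 12.77 with pH 6.4 + DCA and 15.57 in the control, a difference of -2.80, and KRT6C, a close copy of other KRT6 genes, differed by -0.26, while KRT6A, KRT6B and KRT17 were not analysed here.

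Neutrophils and monocytes hold much calprotectin, so their markers were read beside it. Of 12 such markers 0 were higher and 0 were lower, with a median of 0.05. Beside 2.65% higher and 4.00% lower of all transcript clusters, these counts are near the background and no result about these genes. The log2 of their summed linear level was 10.76 with pH 6.4 + DCA and 10.61 in the control. Most of this sum was 1 marker, CD68, at 10.37 with pH 6.4 + DCA and 10.16 in the control. AIF1, FCGR3B, ITGAM and MPO were dim, and PTPRC, the leukocyte common antigen, had 5.07 with pH 6.4 + DCA and 5.03 in the control. Of the 12 markers 8 were above 0 and 4 below. The differences ran between -0.82 for CSF1R, the receptor of macrophage colony-stimulating factor, and 0.76 for FCER1G, a signalling subunit of Fc receptors, and CSF3R, a receptor of neutrophils, differed by -0.64. The epithelial markers were all below control. Of 8, 3 were lower, KRT14 at -2.88, EPCAM at -1.57 and KRT18 at -1.47, and the log2 of the summed level was 17.96 with pH 6.4 + DCA and 18.68 in the control. Of 5 fibroblast markers, LUM was higher at 1.18 and THY1 lower at 49.9% of control, and the log2 of the summed level was 8.86 with pH 6.4 + DCA and 9.12 in the control. THY1 was within 2-fold after centring, quantile normalization or adding 32, and LUM after adding 32, at 0.53, while the 3 lower epithelial markers passed in each. The part of the epithelial and fibroblast shifts in the S100 differences was not tested.

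**Figure D4:**
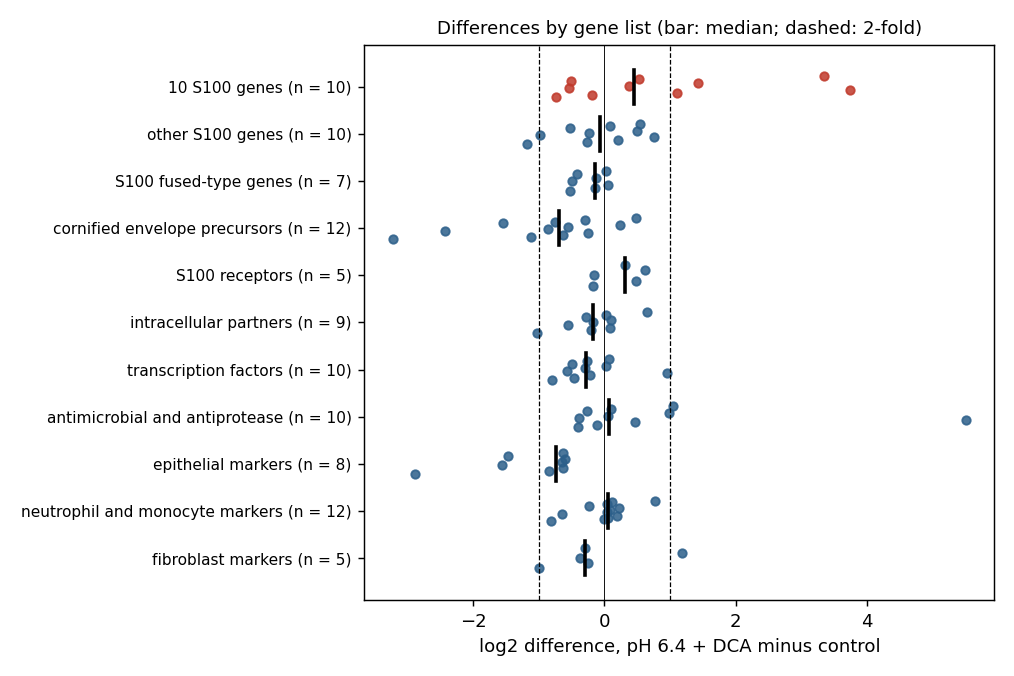
Log2 difference (horizontal axis, pH 6.4 + DCA minus control) of each measured gene by list, with a bar at the median of each list and 2-fold dashed. The 10 S100 genes, in red, have a median of 0.45 and hold S100A8 and S100A9 at the right end of their row. The listed cornified envelope precursors and the epithelial markers have medians of -0.69 and -0.74.

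The genes whose differences were most like those of the calprotectin genes were read from the order of differences over 17683 rows with a symbol, Y genes left out. With 2 arrays the only pattern is the size of the difference. Directly above S100A8 lay HLA-DRB5 at 3.96, a class II antigen presentation gene, and SAA1 at 3.91, an acute-phase gene, and directly below it SAMSN1 at 3.67 and TNFAIP6, a hyaluronan-binding protein of inflammation, at 3.57. Around S100A9 lay TNFAIP6 and TFRC, the transferrin receptor, at 3.53 above it, and SERPINA3, an acute-phase protease inhibitor, at 3.22 and the chemokine CCL20 at 3.18 below it.

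The directions of all 10 members were the same with the arrays centred on the median, after quantile normalization, with a lowess trend on level removed, with 32 added on the linear scale, with 1 value per gene as the mean of its rows and, for the 9 members with a mean level above 4.45, with all dimmer transcript clusters left out. S100A8 lay between 3.41 and 3.80 and S100A9 between 3.08 and 3.40. S100P lay between 1.10 and 1.20, above 2-fold in each.

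**Figure D5:**
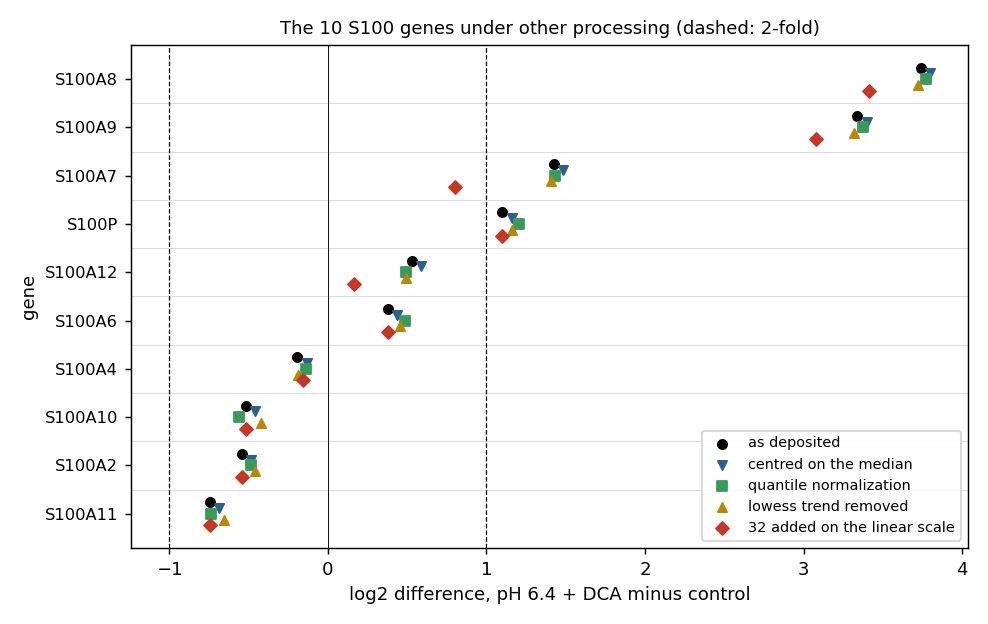
Log2 difference (horizontal axis, pH 6.4 + DCA minus control) of the 10 S100 genes as deposited and under 4 other ways of processing, with 2-fold dashed. With 32 added on the linear scale S100A7 lies at 0.80, left of the line, and no gene crosses 0.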

How the data were processed

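Clariom S human arrays were hybridized with RNA of CP-A cells, 1 from the pH 6.4 + DCA condition and 1 from the control. The submitters' notes name Transcriptome Analysis Console 4.0, and the authors deposited its log2 levels for 21448 rows. How background, summarization and normalization were set, and on which build, is not given in the sources used here, so that any compression of dim or very bright signals was inherited. The deposited log2 values were used unchanged, over 20893 transcript clusters, without 555 unmapped transcripts. Of all rows 17709 had 1 symbol in the platform annotation, 0 had several and 3739 had none. The row with the highest mean was kept for each gene.

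With 1 array per condition no test was made, and calls are differences of 2-fold or more. The members and gene lists were chosen with earlier results of these data known. All measured S100 genes are named. Of other lists, up to 4 members past 2-fold are named by size, with neighbours past 2-fold in gene order and the genes next to S100A8 and S100A9 in the order of differences. Genes named beyond this rule were chosen after their values were seen. Promoter windows and gene order came from RefSeq (GRCh38.p14). The calculations used Python 3.11.15, numpy 2.4.6, pandas 2.3.3, statsmodels 0.14.6, Biopython 1.88 and matplotlib 3.10.9. The 2-fold calls and the median difference were tested on simulated data, unadjusted and under centring, quantile normalization and lowess. The other steps were not tested in this way. Lowess had a span of 0.3, and 1 alternative left out the rows below the 25th percentile of the mean of both arrays. The other gene lists were recomputed under the scaling alternatives after their values were seen. Methylation, copy number, RT-qPCR and tissue data were not analysed here. The part of the copy number changes reported by the paper was not tested for any gene.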

Additional observations from a re-analysis of the deposited data

How the results depend on the processing

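No paired analysis was possible because each condition had 1 array. The count of higher members stayed at 4 except with 32 added on the linear scale, where it was 3 without S100A7, and with a 3-fold threshold, where it was 2, S100A8 and S100A9. The count of lower members was 0 except at a 1.5-fold threshold, where S100A11 passed and it was 1. The median difference of the members was 0.27 with 32 added and lay between 0.38 and 0.51 elsewhere. Over all transcript clusters 284 were higher and 554 lower with 32 added, 2269 and 2397 at 1.5-fold, and 106 and 283 at 3-fold, beside 553 and 835 in the values given above, and 573 and 844 with the 555 unmapped transcripts kept. The other alternatives moved no count by more than 1.5 times. Adding 32 shrinks differences of dim rows by construction, and the level below which these arrays carry no signal is not known. Of the 10 other S100 genes, none changed its sign or its 2-fold call under centring, quantile normalization, lowess or the addition of 32. Signal strength limits S100A12, S100A7, S100A7A, S100A5, S100B, S100G and S100Z, and the single array per condition limits every value.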
